A study of Fundulus heteroclitus with 15 samples.

Results

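Liver RNA of unexposed adult female Fundulus heteroclitus, the mummichog, a small fish of Atlantic salt marshes that serves in toxicology, was measured on 5 control arrays. They were chosen by their treatment label of none and make up 5 of the 15 arrays in all. The other 10 arrays hold adult female livers after 14 days in water with 17α-ethinylestradiol (EE2), an estrogen made for oral contraceptives, with 5 arrays at 50 ng/L and another 5 at 250 ng/L. The labels call the 5 arrays of a group biological replicates and do not say whether an array holds 1 fish or a pool, so the p-values measure the spread between these samples. Each array was a 1-colour Agilent array on which liver RNA carried the dye Cy3, and the labels place controls 1 and 2 on slide 1 and controls 3, 4 and 5 on slide 2, each with 5 EE2 arrays. The question put to the control arrays was which transcripts of the liver were brightest and dimmest without added estrogen, and which differed most from one unexposed sample to the next.

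Liver cells make and secrete most proteins of blood plasma: the carriers of iron and lipid, the clotting factors, the complement proteins and the inhibitors of proteases. In egg-laying fish the female liver also makes vitellogenins, the precursors of egg yolk, and in many species the egg envelope (zona pellucida) proteins, and estrogen acting through its receptors raises both. Exocrine pancreas, which secretes digestive enzymes, lies scattered along the portal vessels of many bony fish, in or beside the liver.

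A probe counted as measured when its spots were well above background on all 5 control arrays. Of 7152 probes, 5590 (78.2%) were, 774 were so on 1 to 4 control arrays, and 788 on none. The measured probes hold 3573 with a gene name, which come to 2741 different names, and 2017 without one. All 5 control arrays had 81.3% to 86.3% of their probes well above background, and none had a saturated spot. Each level below is a log2 signal minus the 75th percentile of its own array, so a level of 0 is that percentile and 1 unit is a factor of 2. A level ranks how bright a probe is and not how abundant its transcript is, because probes bind with different strength: among 547 genes with at least 2 measured probes, the mean levels of a gene's probes differed by a median of 2.28, and in 155 genes by over 4.

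Mean levels over the 5 control arrays ran from -7.04 to 8.36, with a median of -1.65 and quartiles of -3.68 and 0.72. The standard deviation (SD) over the 5 arrays had a median of 0.445. For 43.1% of the probes (2412) all 5 control arrays lay within a 2-fold range, while 188 probes spanned more than 16-fold. An SD of 1 or more was found for 525 probes (9.39%), and for 189 of the 2741 genes when each was read on its brightest probe (6.9%). The share of probes with such an SD went from 7.01% among the probes below the lower quartile of level to 11.0% above the upper quartile. The median SD went the other way over the same probes, from 0.478 below the lower quartile to 0.420 above the upper. On the same probes the median SD was 0.417 at 50 ng/L and 0.409 at 250 ng/L. Control 4 was the array farthest from the control mean on 2078 probes (37.2%), which is the largest share of the 5, and its pairwise correlations with the other controls were the lowest on average. Correlations between pairs of control arrays over all measured probes ran from 0.932 to 0.977. No probe was in both the 50 brightest and the 50 most variable.

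**Figure D1:**
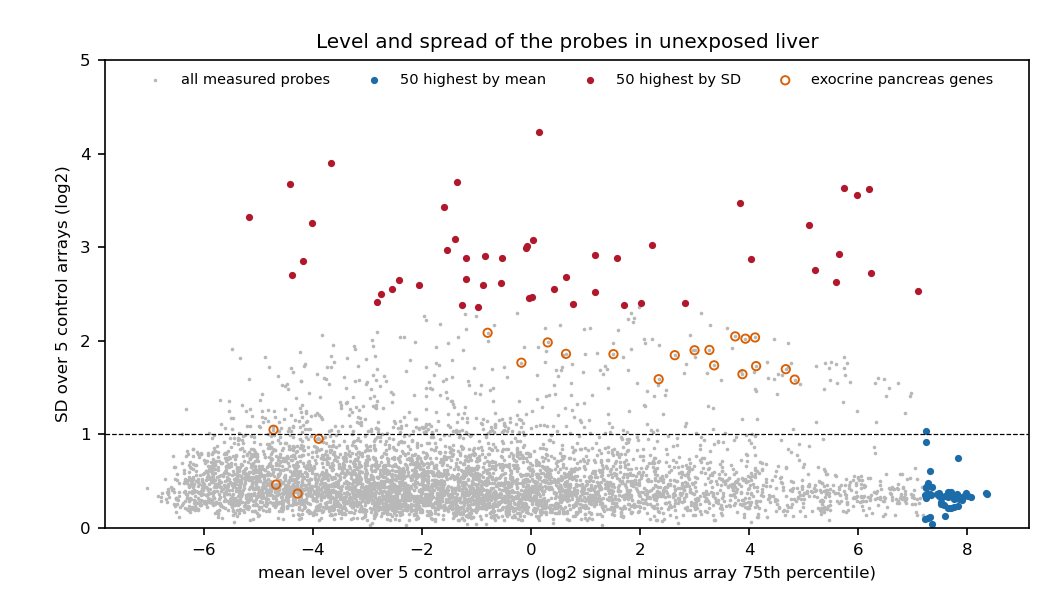
Mean level (x axis, log2 signal minus the array's 75th percentile) against SD over the 5 control arrays (y axis, log2) for 5590 probes, with the 50 highest by mean in blue, the 50 highest by SD in red and 1 probe for each of 21 exocrine pancreas genes as orange rings. The blue points lie above a mean of 7.22, the red points lie above an SD of 2.36, and 18 of the 21 rings lie above the dashed line at an SD of 1.

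The brightest named probes belonged to secreted plasma proteins, and they varied little. Transferrin, which carries iron in plasma, read 8.39, 8.37, 7.80, 7.75 and 7.58 in controls 1 to 5. Apolipoprotein C-I, a lipoprotein component, read 8.30, 8.32, 7.79, 7.79 and 7.54. Alpha-1-antitrypsin homolog (probe AN_v_4148), a protease inhibitor, read 8.08, 8.07, 7.76, 7.72 and 7.54. In all of these, controls 1 and 2, the controls of slide 1, were the highest and control 5 the lowest, within a 1.75-fold range.

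Other plasma proteins among the 20 brightest named genes were serotransferrin (7.81 ± 0.36, SD, n = 5), apolipoprotein A-I (7.77 ± 0.33), the main protein of high-density lipoprotein, and AMBP protein (7.57 ± 0.25), the precursor of alpha-1-microglobulin and bikunin. The clotting protein fibrinogen was there by its alpha chain (7.59 ± 0.34) and its gamma-B chain (7.49 ± 0.35). Hepatocyte growth factor activator and urokinase-type plasminogen activator, both serine proteases, had means of 7.79 and 7.75. Complement was there by C3-1 (7.28 ± 0.11), the central component of the cascade, and by complement factor H-related protein 2 (7.36 ± 0.04). C-type lectin superfamily members 8, 13 and 9, named for a carbohydrate-binding fold, had means of 7.83, 7.70 and 7.65. Products that are not secreted were in the list too: cytochrome c oxidase subunit 2 (7.54 ± 0.34) and NADH-ubiquinone oxidoreductase chain 1 (7.49 ± 0.38) are encoded in the mitochondrial genome. Saxitoxin and tetrodotoxin binding protein 1, a plasma protein that binds these neurotoxins in pufferfish, read 7.96, 7.18, 7.25, 7.10 and 7.20, and only control 1 was high. Beta-microseminoprotein ran from 6.41 in control 4 to 8.13 in control 1, a 3.28-fold range and the widest of these 20.

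**Figure D2:**
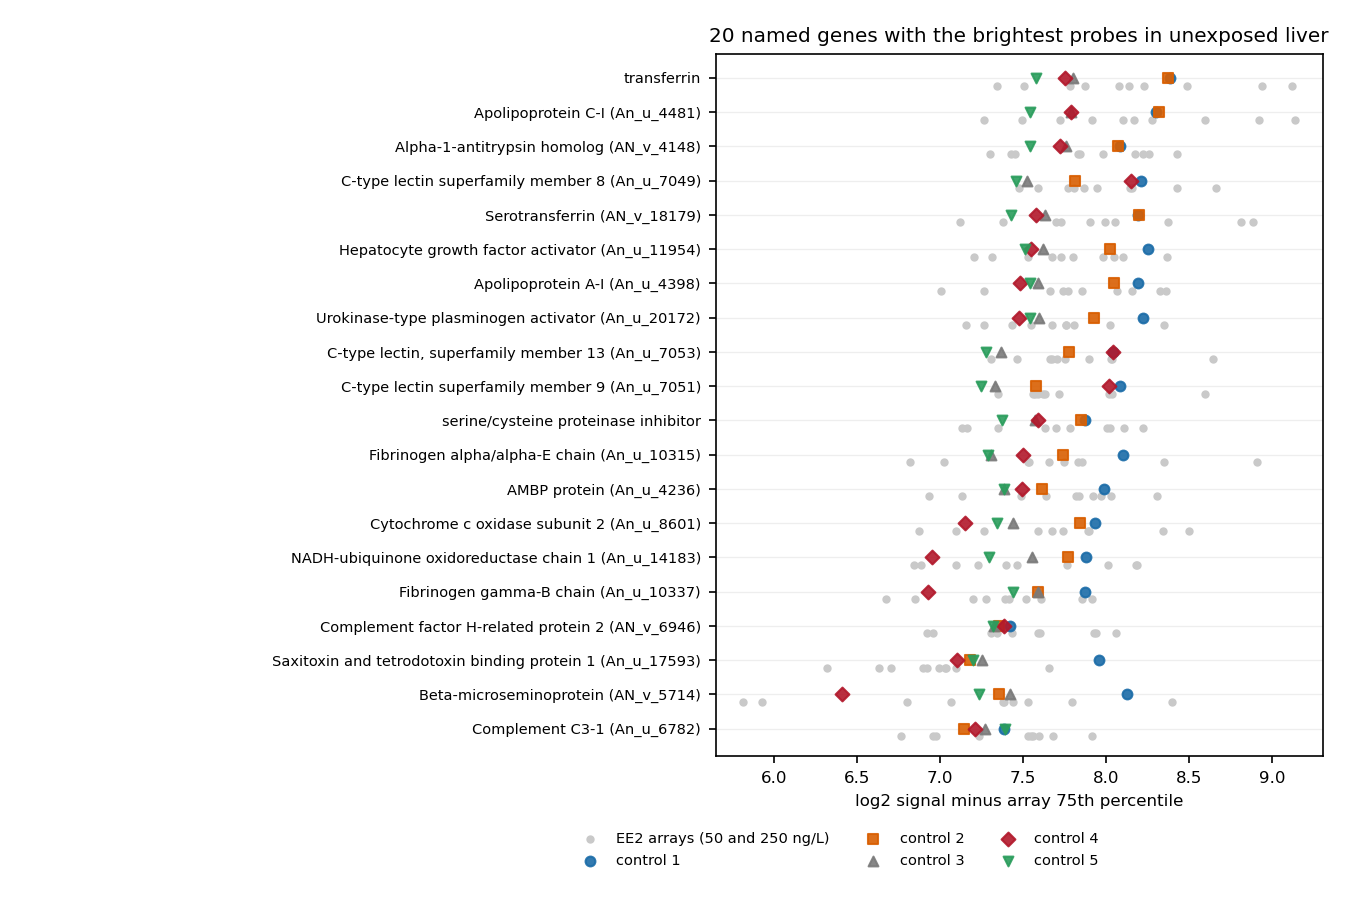
Levels (x axis, log2 signal minus the array's 75th percentile) of the 20 named genes with the brightest probes, with the 5 control arrays in colour and the 10 EE2 arrays in grey below them. Controls 1 and 2 lie to the right for most genes, and complement factor H-related protein 2 falls on 1 spot near 7.36. The EE2 arrays reach beyond the controls on both sides, but they are 10 arrays of both doses against 5 of 1 group.

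The 3 brightest probes of all, UnAn_29558, UnAn_20851 and UnAn_22637, carry no gene name and had means of 8.36, 8.34 and 8.07. The 50 brightest probes held 31 with a name, for 23 different names, and 4 of the 31 were alpha-1-antitrypsin homolog. Cystatin (AN_v_7162, 7.24) and complement factor B (7.22) lay just inside the 50, and pregnancy zone protein (7.18), hemoglobin alpha chain (7.17) and complement component C9 (7.13) just outside. The median SD of the 50 was 0.347. Control 1 or control 2 was the highest array for 49 of the 50, and this order depended on the scaling: after quantile normalization it held for 27, with a median SD of 0.142, and in the values the authors deposited for 28, with a median SD of 0.141. Of the 50, 43 were also among the 50 brightest at 50 ng/L and 41 at 250 ng/L. Among the probes that came into the 50 brightest at 250 ng/L, 4 were for vitellogenin or zona pellucida proteins, and at 50 ng/L 0 were. None of the 50 passed the test between exposed and control arrays (limma, adjusted p under 0.05), where 94 of all 6145 probes tested did (1.53%). Their median difference, exposed minus control, was 0.10 against -0.02 over all probes tested.

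The dimmest measured genes included several that are known from other tissues. Arginase, non-hepatic 1 (a urea-forming enzyme, here by its form outside the liver) had the lowest mean, -7.04, and read -6.97, -6.34, -7.26, -7.46 and -7.15. Zinc finger protein 16 (-6.83), DNA polymerase epsilon p17 subunit (-6.78), adrenomedullin receptor (-6.77) and basic fibroblast growth factor receptor 1 (-6.69) came next. Myelin transcription factor 1 (-6.67), a factor of the nervous system, the chemokine interleukin-8 (-6.56) and titin isoform N2-B (-6.51), a giant protein of the muscle sarcomere, were among the 15 lowest. Control 4 read lowest for each of the 15 except titin isoform N2-B, and whether this order held under other scalings was not tested. Over all measured probes the median deviation of control 4 was -0.10 here and 0.01 after quantile normalization. Signals at these levels lie near background, so the values are the least certain of those given. One of the 15, each read on the brightest probe of its gene, differed from the EE2 arrays, where 1.64% of all genes did. This was putative alpha-mannosidase C20orf31, which read -6.94, -6.37, -6.08, -7.06 and -6.44 in the controls and up to -0.72 in the EE2 arrays. The difference was 2.67 (limma, adjusted p = 0.0188), and it was 2.78 within slide 1 and 2.58 within slide 2. That call was lost without control 1, 4 or 5 and under normexp background correction, and over the 11 alternatives the adjusted p of limma ran from 0.0149 to 0.0736. By dose, the mean of C20orf31 was -5.77 at 50 ng/L (limma, adjusted p = 0.9996) and -2.05 at 250 ng/L (limma, adjusted p = 0.000392).

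Markers of liver cells were bright in every control array. All 23 hepatocyte marker genes were measured, with a median level of 6.88, which lies at percentile 98.7 of the measured probes, and a median SD of 0.347. Their brighter values in control 1 depended on the scaling: its median deviation was 0.26 here and -0.04 after quantile normalization. Their list medians were 7.24, 7.07, 6.68, 6.64 and 6.64 in controls 1 to 5. Of the other tissues checked besides pancreas, 0 of 5 ovary genes, 16 of 30 muscle genes and 2 of 5 intestine genes were measured on all 5 arrays. So were 6 of 10 erythrocyte genes and both kidney genes, the latter at a median level of -3.93. Muscle genes had a median level of -4.37, and leukocyte genes (33 of 40) one of -1.79. Hemoglobin alpha chain, an erythrocyte protein, was bright at 7.17 on its brightest probe, while hemoglobin beta-2 chain read -5.04. The 4 measured alpha chain probes had means from -4.60 to 7.17, so these levels do not rank the chains. Since these are bulk samples, fewer cells of a type and less RNA per cell cannot be told apart.

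Among the secreted products, 14 plasma protease inhibitors had a median level of 4.52 and a median SD of 0.322, 18 complement genes 4.08 and 0.363, and 14 coagulation genes 3.51 and 0.359. The corresponding median SD over all 2741 genes was 0.434. In these 3 lists the median deviation of an array from the control mean ran from -0.13 to 0.15, but after quantile normalization control 1 deviated by -0.33 for protease inhibitors and -0.27 for complement. Control 1 was then lowest for 10 of the 14 protease inhibitors, in place of 5, and for 9 of the 18 complement genes, in place of 6. Complement C4, a component of the classical and lectin branches, was among the more variable members (SD 0.78) and read 3.95, 4.29, 4.84, 5.58 and 5.72, with controls 4 and 5 highest. Plasminogen, the precursor of the clot-dissolving enzyme plasmin, showed a like split, with 2.76, 2.86, 3.71, 4.05 and 4.13. On both genes all controls of slide 2 lay above those of slide 1, so sample and slide cannot be told apart. Apolipoprotein Eb, a lipoprotein component, had the widest spread of 8 apolipoprotein genes (SD 1.26) and read 7.24, 6.19, 6.65, 5.91 and 3.92, with control 5 far below the rest. Apolipoprotein B-100, the structural protein of low-density lipoprotein, had an SD of 0.15 on 1 of its 2 measured probes and of 0.94 on the other. The mean levels of this pair ranged from -5.37 to 6.49, so these SDs do not give 1 spread for the gene. Among acute phase proteins, pentraxin fusion protein (An_u_15229) read -1.74 in control 1 against 1.83 to 4.12 in the other controls, and serum amyloid P-component read -2.23 in control 3 against 0.34 to 2.13. In 11 genes of iron handling the median SD was 0.345, and hepcidin, the hormone that limits iron release into plasma, was highest in control 2 (3.48 against 1.51 to 2.44).

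Of the estrogen-responsive egg proteins, vitellogenin I and zona pellucida sperm-binding proteins 3 and 4 were bright in the unexposed females on their brightest probes. The probes given below for other vitellogenins were dim. Further vitellogenin I probes had control means of 4.04 (AN_v_20346), 1.497 (An_u_20270) and -1.53 (An_u_20261). Brightness thus depended on the probe, and these levels do not rank the vitellogenin transcripts. The zona pellucida sperm-binding protein 4 probe An_u_20617 read 4.69, 5.07, 2.85, 3.74 and 4.15 in controls 1 to 5. Vitellogenin I (AN_v_20344) read 4.73, 4.92, 2.78, 3.15 and 4.69. Control 2 was highest and control 3 lowest in both, control 5 lay level with control 1 on vitellogenin I, and all 10 EE2 arrays lay above all 5 controls, at 6.29 to 8.88 and 6.21 to 8.87.

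Zona pellucida sperm-binding protein 3 (An_u_20585) read 3.52, 3.13, 2.86, 3.93 and 4.10. Vitellogenin II (An_u_20378) was dim, at -4.07, -3.14, -3.32, -3.95 and -1.14, and control 5 was highest. The probe named only vitellogenin (An_u_20385) read -5.45, -5.26, -3.52, -3.80 and -4.15. Its order of arrays ran against that of the vitellogenin I probe AN_v_20344, since controls 1 and 2 were its lowest. The vitellogenin I probe An_u_20261 was also lowest in controls 1 and 2. Vitellogenin A2 was well above background on 3 of the 5 control arrays, and zona pellucida sperm-binding protein 1 on 0 of the 5. Over 5 measured genes of this list the median SD was 0.871, at percentile 90.4 of level. All 5, read on their brightest probes, were higher in exposed arrays (83 of 6145 probes were, 1.35%), by 2.26 for zona pellucida sperm-binding protein 3 (limma, adjusted p = 2.15e-05) to 7.60 for An_u_20385 (limma, adjusted p = 1.26e-07). Within slide 1 the 5 differences ran from 2.42 to 8.69 and within slide 2 from 2.16 to 6.81. By dose, all 5 were called at 250 ng/L, and at 50 ng/L all but vitellogenin II (An_u_20378, limma, adjusted p = 0.0997) were. A dimmer vitellogenin II probe, AN_v_20379, was called higher at 50 ng/L (limma, adjusted p = 0.0209). The list was chosen with that response known. Probes of 1 gene did not all respond: of 15 measured vitellogenin and zona pellucida probes 13 were called higher, and a vitellogenin II probe (An_u_20355, limma, adjusted p = 0.85) and a zona pellucida sperm-binding protein 3 probe (An_u_20588, limma, adjusted p = 0.735) were not.

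Estrogen receptor alpha, the receptor that mediates vitellogenin induction in fish liver, was measured by a pair of probes. The brighter read 2.94, 2.31, 1.01, 0.61 and 1.97, and the dimmer read -1.74, -1.71, -3.03, -3.65 and -1.70. In both, controls 1, 2 and 5 lay above controls 3 and 4, and control 4 was lowest. The brighter of the probes for estrogen receptor BetaA was steadier, at -0.74, -1.19, -0.27, -0.60 and -0.40. Neither receptor passed the test against the exposed arrays, where the differences were 0.34 (limma, adjusted p = 0.883) and -0.09 (limma, adjusted p = 0.942) on these probes.

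Genes of exocrine pancreas made the largest coordinated difference between unexposed samples among the 28 lists examined. Elastase-2, a pancreatic protease, read 5.27, 2.33, 5.68, 6.48 and 4.43 in controls 1 to 5. Trypsin I read 5.02, 0.58, 4.90, 5.73 and 4.32, and pancreatic alpha-amylase, which digests starch, read 2.67, -0.04, 4.22, 4.87 and 3.29. Control 2 was lowest in each, by more than 4-fold against the next array, and control 4 was highest.

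All 21 exocrine pancreas genes on the array were measured, at a median level of 2.64 and with a median SD of 1.77, and 18 of them had an SD of 1 or more, against 6.9% of all genes. Control 2 was lowest for 20 of the 21 and control 4 highest for 16. The median deviation from the control mean was -2.97 in control 2 and 1.58 in control 4. Chymotrypsin A, which read 0.14 in control 2 and 4.12 to 5.01 in the others, carboxypeptidase B (0.40 against 4.34 to 5.31), bile-salt-activated lipase (-2.93 against -0.77 to 1.43) and phospholipase A2 (-2.41 against 0.25 to 2.22) followed the same order at the low end. Cationic trypsin and anionic trypsin I were dim, at means of -4.27 and -4.67, and had SDs of 0.37 and 0.46. Without control 2 the median SD of the list was 0.761, still above the 0.441 of all measured probes over the same arrays. Pancreatic transcripts also varied among exposed samples, whose list medians ran from 1.77 to 5.96, all above the -0.36 of control 2. None of the 21 genes passed the test between exposed and control arrays (limma, adjusted p 0.576 or more for each), where 1.64% of all genes did, and the median difference was 1.16. It was 2.27 within slide 1, which holds control 2, and 0.42 within slide 2. Over the same arrays the hepatocyte markers of control 2 deviated by 0.12. How much pancreatic tissue each sample held was not measured, and its part in this difference was not tested.

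**Figure D3:**
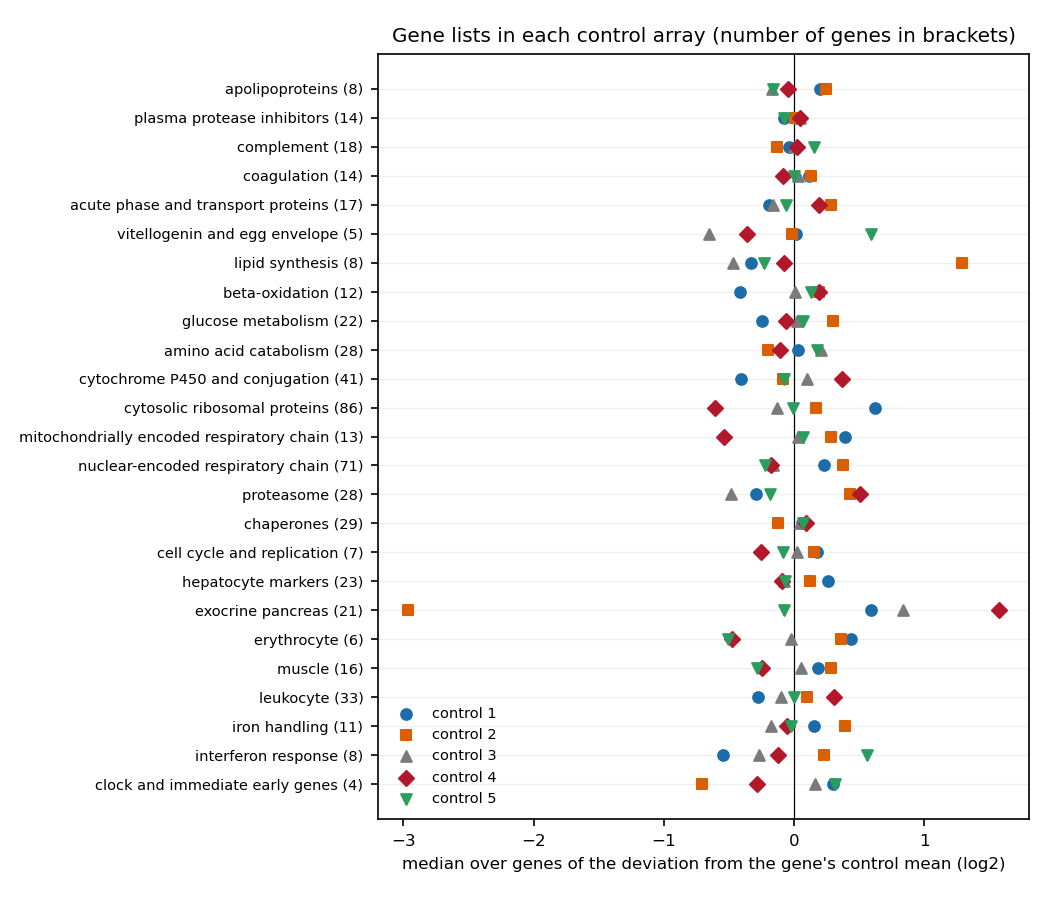
Median deviation of each gene list from the control mean (x axis, log2) in each of the 5 control arrays, for 25 lists with at least 4 measured genes. Exocrine pancreas spreads from -2.97 in control 2 to 1.58 in control 4, lipid synthesis has control 2 apart at 1.29, and cytosolic ribosomal proteins run from -0.61 in control 4 to 0.62 in control 1.

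Beyond the listed enzymes, 87 probes had control 2 at least 4-fold below every other control, and 38 of them were among the 58 measured probes of the pancreas list. Over the 87, the median level was 0.14 in control 2 and 3.29 to 4.93 in the other controls, and 2.89 to 6.09 in the EE2 arrays. The 49 named among them included caldecrin (-2.28 against 0.70 to 2.20), a chymotrypsin-like pancreatic protease, pancreatic secretory trypsin inhibitor (-3.28 against -1.27 to 0.24), and protein disulfide-isomerase A2 (-6.33 against -3.64 to -1.75), a folding enzyme found in pancreas. P-selectin, an adhesion molecule, read 3.14, -1.77, 1.24, 4.44 and 3.08. A probe named 40S ribosomal protein S19 (An_u_781) read 5.38, 1.70, 5.79, 5.80 and 4.93, nearly the values of elastase-1 (5.32, 1.71, 5.75, 5.72 and 4.88), whereas other ribosomal proteins did not share that order. Protein C20orf22 stood apart differently: it read -5.21 in control 2 and 0.40 to 0.81 in the other controls, and above 0 in all 10 EE2 arrays.

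Control 2 was also the highest array for genes of lipid synthesis. 3-hydroxy-3-methylglutaryl-coenzyme A reductase, the rate-limiting enzyme of cholesterol synthesis, read 4.37, 6.14, 4.17, 4.77 and 4.08. Isopentenyl-diphosphate delta-isomerase 1, a later step of the same pathway, read 1.53, 3.27, 1.30, 1.34 and 1.48. Fatty acid synthase read -1.82, -0.43, -2.15, -1.24 and -2.27. In each of these, control 2 was the highest array, and on fatty acid synthase control 4 came nearest to it.

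Of 8 lipid synthesis genes, 7 were highest in control 2, and its median deviation was 1.29, while the other controls had -0.47 to -0.08. Delta-5/delta-6 fatty acid desaturase (0.71 against -1.50 to -0.83) and 24-dehydrocholesterol reductase (-3.14 against -5.22 to -4.22) were among the 7. Acetyl-CoA carboxylase 1 was the exception and was lowest there, at -0.46. None of the 8 passed the test between exposed and control arrays, a count near the 1.64% of all genes that did, and the median difference was 0.96. It was 0.54 within slide 1, which holds control 2, and 1.21 within slide 2. 14-alpha demethylase, a sterol enzyme that the name patterns of this list did not take in, was called higher in exposed arrays, by 1.73 (limma, adjusted p = 0.0309). By dose, it was called at 250 ng/L only (limma, adjusted p = 0.00258). Glucose metabolism, with 22 genes, had a smaller deviation of 0.30 in control 2, which was highest for 11 of them. Within that list, hexokinase D, the glucokinase that phosphorylates glucose in liver, had the widest spread and read -3.67, 0.38, -0.69, -1.70 and 0.47. Fructose-bisphosphate aldolase B, the liver aldolase, had an SD of 0.32 and glucose-6-phosphatase, which frees glucose for export, one of 0.35.

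Ribosomal and mitochondrially encoded transcripts were lowest in control 4 and highest in control 1, the latter for the mitochondrial ones only under some scalings. 40S ribosomal protein S12 (An_u_278) read 7.75, 6.87, 6.57, 6.40 and 6.87, and 60S ribosomal protein L8 read 7.30, 7.09, 6.70, 6.27 and 6.93. Of 86 cytosolic ribosomal protein genes, 73 were lowest in control 4 and 67 highest in control 1. Their median deviation was -0.61 in control 4 and 0.62 in control 1, and 14 of the 86 had an SD of 1 or more. Under the other 4 scalings, which include quantile normalization and the authors' values, 59 to 70 were lowest in control 4 and 57 to 73 highest in control 1.

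The 13 mitochondrially encoded respiratory chain genes showed the same order, with 11 lowest in control 4 (median deviation -0.54) and 10 highest in control 1 (0.39). The low values of control 4 held under the other scalings (10 or 11 lowest), but after quantile normalization and in the authors' values only 3 were highest in control 1. Cytochrome b, for example, read 5.87, 5.76, 5.41, 4.28 and 5.53. Nuclear-encoded respiratory chain genes, 71 in number, differed from these at the high end: 43 were highest in control 2, while 31 were lowest in control 4 and 27 in control 5, and their deviations ran from -0.23 to 0.38. The median deviation of all measured probes was -0.10 in control 4 and 0.05 or less in the other controls. Cytochrome P450 and conjugation genes ran the other way, with 22 of 41 highest in control 4 and 19 lowest in control 1. Cytochrome P450 2P2 read -1.01, -0.75, 1.13, 1.17 and 0.99, so controls 1 and 2, of slide 1, parted from controls 3, 4 and 5, of slide 2. Glutathione S-transferase 1, a detoxifying enzyme, was lowest in control 4 instead (5.29 against 6.33 to 6.60). Over 28 proteasome genes, control 4 (0.51) and control 2 (0.43) were high and control 3 (-0.49) was low.

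Chaperones, the proteins that help others fold, did not share 1 order of arrays. Of 29 genes, heat shock cognate 71 kDa protein, of the cytosol, was the brightest (5.33 ± 0.25), while heat shock protein HSP 90-beta read 3.66, 2.50, 4.18, 3.08 and 3.95, lowest in control 2. Protein disulfide-isomerase A3, of the endoplasmic reticulum, read 3.73, 4.27, 2.89, 5.12 and 2.82. Endoplasmin, the HSP 90 form of that compartment, read 2.28, 3.51, 0.96, 4.29 and 1.29, and protein disulfide-isomerase A4 read 0.25, 1.21, -0.49, 2.72 and 0.04. In these 3 genes control 4 was highest and control 2 next. The latter pair was chosen for naming after its values were seen.

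Amino acid catabolism, a main task of liver, was steadier, with a median SD of 0.404 over 28 genes at a median level of 0.89. Tryptophan 2,3-dioxygenase, which starts the breakdown of tryptophan, was brightest and read 4.94, 5.19, 5.98, 5.51 and 5.23. Serine--pyruvate aminotransferase, mitochondrial, read 5.77, 4.32, 5.71, 4.88 and 5.69, and arginase 1, which forms urea, had the widest spread at -0.97, -2.58, -2.02, -3.68 and -3.35. Beta-oxidation, the mitochondrial and peroxisomal breakdown of fatty acids, had a median SD of 0.449 over 12 genes, and control 1 was lowest for 5 of them, with a median deviation of -0.42. Cell cycle and replication genes were mostly dim, at a median of -3.30 over 7 genes, and cell division control protein 2 homolog, a mitotic kinase, read -3.51, -2.14, -4.81, -3.90 and -4.06, highest in control 2.

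Larger drops in control 4 were found on 94 probes, where it lay at least 4-fold below every other control. Over these the median level was -3.72 in control 4, -0.62 to 0.44 in the other controls and -1.94 to 0.10 in the EE2 arrays. A probe named similar to Ac1147 (An_u_22959) read 8.14, 8.02, 7.60, -0.26 and 7.47, so it was bright in 4 samples and 212-fold lower in control 4 than in the next lowest. Its counterpart rRNA promoter binding protein (An_u_17492) read 7.71, 7.74, 7.45, 1.39 and 6.89, and a probe for low choriolytic enzyme (An_u_12714), named for a hatching enzyme, read 5.77, 5.89, 5.25, -0.97 and 4.22. In all of these the drop was in control 4 alone among the controls.

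Several EE2 arrays also had low values on these 3 probes: similar to Ac1147 ran from 1.48 to 9.05 over the 10 exposed arrays, rRNA promoter binding protein from 1.57 to 8.52 and low choriolytic enzyme from -0.78 to 5.48. The named probes of the 94 came to 39 different names. Matrix Gla-protein, an inhibitor of tissue calcification, read 1.73, 2.13, 2.12, -4.12 and 1.38. Interferon-induced GTP-binding protein Mx, an antiviral protein, read -0.91, -1.24, -0.82, -4.94 and -1.69, below its range of -2.89 to -0.26 in the exposed arrays. Formin 2, an actin nucleator, was at -0.39 in control 4 and at 3.36 to 4.16 in the others, and pleckstrin, a protein of platelets and leukocytes, was at -3.29 against 0.46 to 1.33. 4 of the 94 were cytosolic ribosomal protein probes, including 60S ribosomal protein L29 (-1.09 against 2.01 to 3.36) and 60S ribosomal protein L12 (-0.36 against 2.58 to 3.37). With normexp background correction 54 probes had control 4 this far below, in place of 94. Control 4 also had 8 probes at least 4-fold above every other control, among them the immunoglobulins Ig mu chain C region membrane-bound form (-0.27 against -5.44 to -3.07) and Ig heavy chain V region T601 (-0.89 against -5.67 to -3.43).

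**Figure D4:**
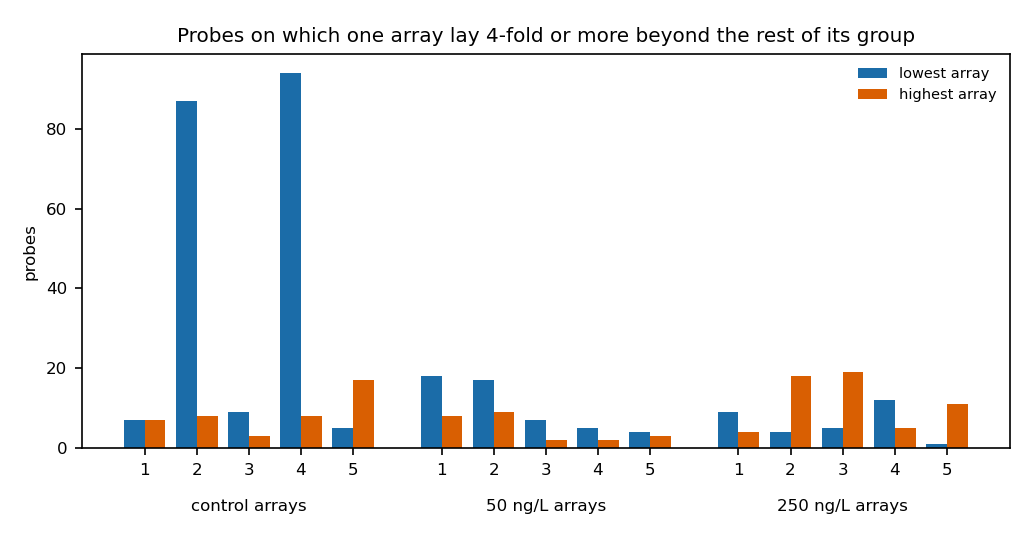
Number of probes (y axis) on which 1 array lay at least 4-fold below (blue) or above (orange) the other 4 arrays of its group, for the 5 control arrays, the 5 arrays at 50 ng/L and the 5 at 250 ng/L. Controls 2 and 4 stand out with 87 and 94 low probes, while each EE2 array had 18 or fewer.

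Over all measured probes, 242 (4.33%) had 1 control array at least 4-fold away from the other 4. Low arrays accounted for 202 cases and high arrays for 43. At 50 ng/L the same count gave 51 low and 24 high cases, and at 250 ng/L 31 low and 57 high.

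Leukocyte genes varied more than most, with a median SD of 0.755 over 33 genes and 12 of them at an SD of 1 or more. Control 1 was lowest for 12 of the 33 and control 4 highest for 12. The probe named small inducible cytokine A4 homolog, after a chemokine, read 4.24, 4.77, 4.94, 6.11 and 5.02, and cytokine receptor common gamma chain, which takes part in several interleukin receptors, read 4.21, 4.13, 4.07, 4.41 and 4.03. Both were lower in the exposed arrays, by -2.29 (limma, adjusted p = 0.0262) and -0.72 (limma, adjusted p = 0.0298), and they were the 2 leukocyte genes called, where 0.179% of all probes tested were called lower. The first call was lost without control 2, 3, 4 or 5, and the second without any 1 control and under median scaling, with an adjusted p of limma of up to 0.0827 and 0.0920. By dose, both genes were called at 250 ng/L (limma, adjusted p = 0.00548 and 0.00402). Neither was called at 50 ng/L (limma, adjusted p = 0.988 and 0.9996).

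The largest SD of a named gene was that of lysozyme C (probe An_u_12813), an enzyme that cleaves bacterial cell walls and is known from leukocytes. It read -4.19, -4.76, 2.94, 3.36 and 3.39 in controls 1 to 5, a 283-fold range, and 2.32 to 4.67 in all 10 EE2 arrays. Controls 1 and 2, which share slide 1, were thus low, and the other 3 controls lay with the exposed arrays. The 5 exposed arrays of slide 1 were not low, at 2.56 to 4.67.

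Other lysozyme probes split in other ways. Lysozyme C, type M (An_u_12827) read -4.12, -3.55, 2.72, 0.41 and 0.34, with the same controls low. Probe AN_v_12824, also named lysozyme C, read -2.02, -1.22, 4.80, -3.56 and -4.75, so that only control 3 was high. Between slide 2 and slide 1 within the controls, 2 of 5590 probes differed (limma, 0.0358%), and both were named lysozyme C: An_u_12813 by 7.70 with an SE of 0.315 (limma, adjusted p = 0.00234) and AN_v_12817 by 6.20 with an SE of 0.416 (limma, adjusted p = 0.0203). These rank among the most variable probes, so this test and that rank rest on the same values. Before adjustment, 689 of the 5590 probes had a p of limma under 0.05. With 2 controls on slide 1 and 3 on slide 2 the test has little power, so few calls do not mean few slide differences.

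Probes named for the major histocompatibility complex class II, whose proteins present antigen to T cells, differed widely in single samples. The probe for RT1 class II A beta chain (An_u_17494) read 0.75 in control 1 and -6.34, -6.62, -6.77 and -6.88 in controls 2 to 5. The reverse held for the HLA class II DRB1-4 beta chain probe (An_u_12141), which read -5.38 in control 1 and 1.95, 1.34, 0.90 and 0.75 in the others. The H-2 class II I-E beta chain probe (An_u_11172) read -5.69 in control 1 and 0.67, 0.84, 0.83 and 0.68 in the others, and HLA class II DRB1-8 beta chain (An_u_12142) read -6.58 against -1.73 to -0.17. Control 1 was thus the array apart in all 4.

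Among the EE2 arrays, 1 array at 250 ng/L had the RT1 probe at 0.61, and the other 9 lay at -6.16 or below. The DRB1-4 probe was at -0.75 to 1.94 in all 10. Other class II chains differed less or in other orders. HLA class II DQ beta chain (An_u_12132) was also lowest in control 1, at -2.35 against -0.76 to 0.84, while H-2 class II E-U alpha chain was high in controls 1 and 2, at 4.18 and 3.99, and at 2.79 or less in the others. H-2 class II A-B alpha chain, the brightest, read 5.95, 6.39, 5.86, 5.82 and 5.50, and I-A beta chain had an SD of 0.17. These are names of mammalian proteins, as the array's design gives them. Whether closely related gene copies bind the same probe was not tested. Butyrophilin-like 2, a member of a family that modulates T cells, read 1.48, -4.16, 0.58, 0.63 and -4.49, so controls 2 and 5 were low, and its exposed arrays ran from -6.44 to 1.59.

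**Figure D5:**
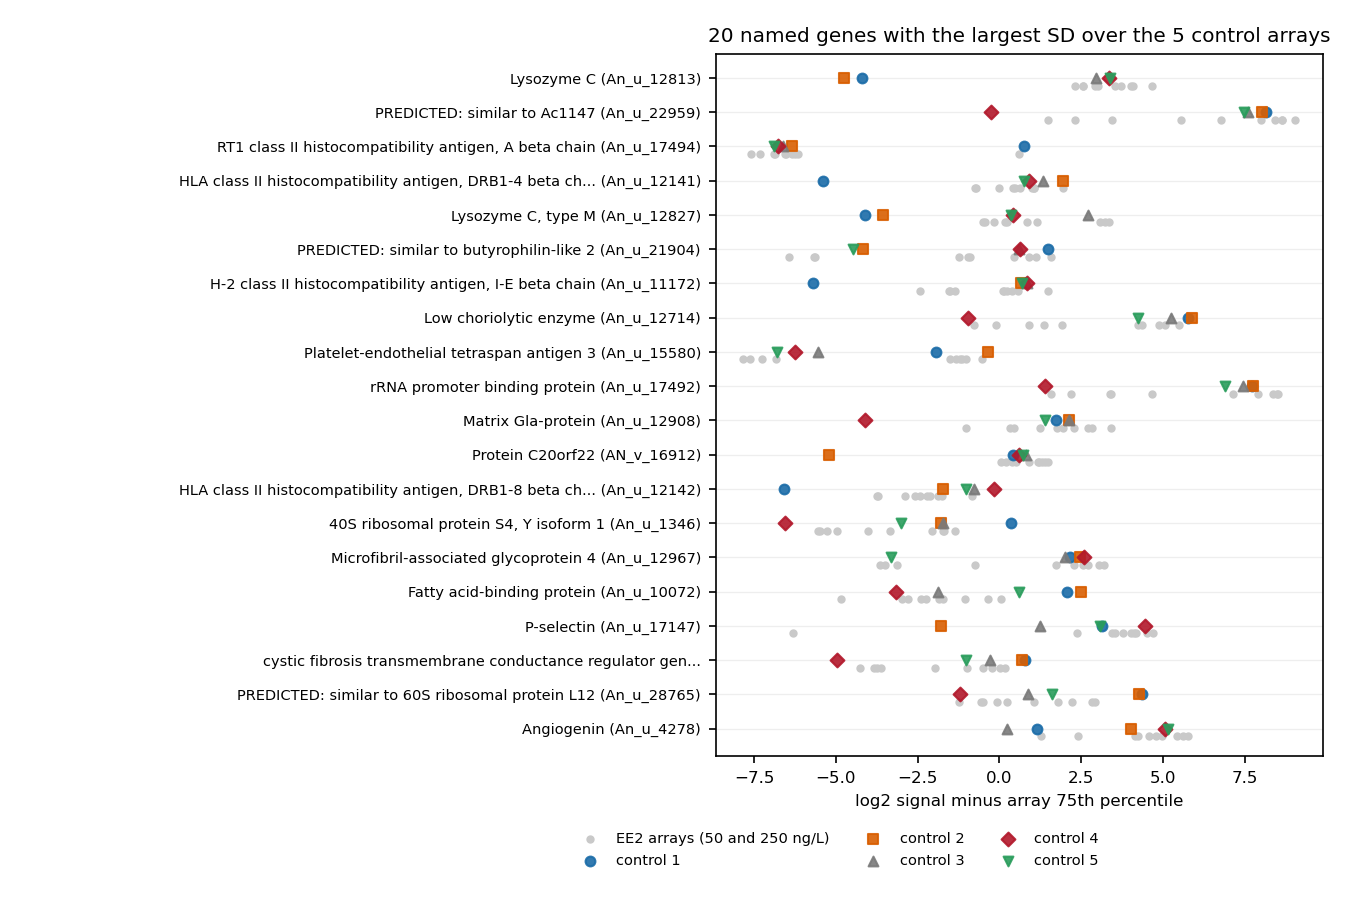
Levels (x axis, log2 signal minus the array's 75th percentile) of the 20 named genes with the largest SD over the control arrays, with the 5 control arrays in colour and the 10 EE2 arrays in grey below them. For most genes the control arrays form separate clusters of values, such as lysozyme C, at -4.19 and -4.76 in controls 1 and 2 and at 2.94 to 3.39 in controls 3 to 5.

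The rest of the 20 named genes with the largest SD had their low or high values in various arrays. Platelet-endothelial tetraspan antigen 3 read -1.95, -0.36, -5.55, -6.25 and -6.79, and the exposed arrays covered both ends, from -7.84 to -0.54. Microfibril-associated glycoprotein 4, an extracellular matrix protein, was low in control 5 alone (-3.31 against 1.99 to 2.59) and ran from -3.64 to 3.19 in the exposed arrays. Fatty acid-binding protein (An_u_10072) read 2.06, 2.51, -1.88, -3.16 and 0.60. Angiogenin, a secreted ribonuclease, read 1.14, 4.02, 0.22, 5.07 and 5.15, with controls 1 and 3 low. For 40S ribosomal protein S4, Y isoform 1 the values went from -6.56 in control 4 to 0.35 in control 1, and for similar to 60S ribosomal protein L12 (An_u_28765) from -1.20 to 4.35 in the same arrays.

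Among the unnamed probes, UnAn_23140 (SD 3.90), UnAn_27766 (SD 3.67) and UnAn_22717 (SD 3.63) varied most. UnAn_27766 was high in control 5 alone, at 1.94 against -7.28 to -4.99, and stayed at or below -5.40 in all EE2 arrays. UnAn_22717 was low in control 4 alone, at -0.71 against 6.96 to 7.78. The 50 probes with the largest SD held 28 with a name, for 24 different names. Carboxypeptidase B (AN_v_5983, SD 2.39) lay just inside the 50, and similar to 60S ribosomal protein L12 (SD 2.36), carboxypeptidase B (An_u_5984, SD 2.29) and angiogenin (SD 2.29) just outside. Without control 4, 28 of the 50 stayed among the 50 most variable, and without another control 40 to 45 did. Of the 50, 17 were also among the 50 of largest SD at 50 ng/L and 16 at 250 ng/L. At 50 ng/L, 30 of the 44 that were well above background on all 5 arrays had an SD of 1 or more, against 7.32% of all probes, and at 250 ng/L 33 of 41, against 7.94%. Between exposed and control arrays limma called 0 of the 50, against 1.53% of all probes tested. The control SD that chose these probes also enters the spread used by that test, so the count cannot show whether their levels differ.

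Control 5 alone was high on several probes that were chosen after their values were seen. Acidic mammalian chitinase (An_u_3552), which digests chitin, read -5.13, -5.22, -5.60, -5.91 and 1.78, and -6.26 to -5.41 in the EE2 arrays. Fatty acid-binding protein, intestinal, read -5.24, -6.13, -6.99, -6.05 and -2.29, and -9.26 to -5.85 in the EE2 arrays. Retinol-binding protein II, cellular, a carrier of vitamin A known from intestine, was at -2.66 in control 5 and at -5.58 to -4.78 in the other controls. No EE2 array reached control 5 on any of these 3 probes. Mucin-2, the other measured intestine gene, was not high there (-3.65 against -5.11 to -3.25). Radical S-adenosyl methionine domain containing 2 (viperin, an interferon-induced antiviral protein) was at -2.09 against -5.40 to -4.24, and ubl carboxyl-terminal hydrolase 18 (An_u_20091), which is also induced by interferon, at -3.62 against -5.83 to -5.64. Interferon genes as a list were highest in control 5 for 5 of 8 (4 of 8 after quantile normalization), with a median deviation of 0.56. Mx, the brightest of them, was not among the 5. For the intestine markers and these genes, the part of other tissue in the sample was not tested.

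The 10 steadiest genes above a level of 0 held plasma proteins and proteins of the cell interior. Complement factor H-related protein 2 had the smallest SD (0.04), with 7.42, 7.36, 7.32, 7.38 and 7.32. Torsin A, a chaperone of the endoplasmic reticulum, read 0.41, 0.45, 0.36, 0.48 and 0.36. Cytochrome c oxidase polypeptide VIb, a respiratory chain subunit, read 3.25, 3.47, 3.39, 3.33 and 3.32. The 5 values of each lay within 1.17-fold. These SDs belong to the scaling used here, and bright probes shifted with the scaling. In control 1 the complement list deviated by -0.04 here and by -0.27 after quantile normalization, and the hepatocyte markers by 0.26 and -0.04.

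Contrapsin-like protease inhibitor 3 (SD 0.09), vitamin K-dependent protein C (0.09), an anticoagulant, complement factor B (0.10) and complement C3-1 (0.11) were in the same group of 10, with inhibitor of DNA binding 1, nuclear NF-kappaB activating protein and dynein light intermediate chain 2. Over the 10 exposed arrays, of both doses, complement factor H-related protein 2 ran from 6.92 to 8.06. It was chosen for its small SD in the controls, so a wider range elsewhere was likely from the choice alone.

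Spread itself was compared between control and exposed arrays by a limma fit to absolute deviations from the group mean. It called 22 of 6145 probes (0.358%), 21 with a wider spread in the controls (0.342%) and 1 with a narrower one. Orphan nuclear receptor NR1D1 (Rev-erb alpha), a repressor in the circadian clock, read 0.09, -1.70, -0.01, -1.97 and 0.30 in the controls, with controls 2 and 4 low. Its SD over the control arrays was 1.08, against 0.294 with EE2 at 50 ng/L and 0.181 at 250 ng/L (limma, adjusted p = 0.00648), and its level did not pass the test (-0.45, limma, adjusted p = 0.74). Catalase (An_u_6016), which breaks down hydrogen peroxide, had SDs of 1.13, 0.339 and 0.424 in the same order, and the lysosomal protease cathepsin D 1.06, 0.384 and 0.203. Cathepsin D (An_u_6032) was also higher in level in the exposed arrays, by 2.57 (limma, adjusted p = 0.000271). By dose, its level was called at 250 ng/L (limma, adjusted p = 6.47e-05) and not at 50 ng/L (limma, adjusted p = 0.0516). The probe narrower in the controls was claudin-4, a tight junction protein, with an SD of 0.249 against 2.56 and 2.36. The 22 calls depended on which arrays entered: without 1 control array the count was 6 (without control 2) to 63 (without control 3), and it was 46 without control 4 and 38 without control 5. When a slide difference fitted over all groups was subtracted before the deviations were taken, 4 were called, all of them among the 22. This subtraction leaves part of a slide gap that only the controls have, so the lost calls do not show what slide accounts for. The 4 were NR1D1, cathepsin D, claudin-4 and KDEL containing 1, but not catalase (An_u_6016, limma, adjusted p = 0.796). These genes were chosen for naming after these values were seen.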

How the data were processed

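Per the file headers, the authors' scanner files were made with Agilent Feature Extraction 10.7.1.1, and their processed signal is a background-subtracted intensity per spot. The authors also deposited a table of log2 values for the same arrays, which served as an alternative. Its array medians lay between 7.67 and 7.72, it followed the log2 processed signal of each array (lowest r 0.999), and how it was normalized is not stated in the labels. It gave nearly the counts of quantile normalization (517 and 516 probes with a control SD of 1 or more), so agreement between these alternatives is not separate support. Each level is log2 of the processed signal, averaged over the 2 spots of a probe, minus the 75th percentile of its array; control spots and outlier spots were left out. Groups came from the treatment labels and slides from the array titles, control arrays are numbered in accession order, and 0 columns of per-sample values were left unused.

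Levels, SDs and gene lists of the 5 control arrays were described without a test. limma 3.58.1 (R 4.3.3; tables with pandas 2.3.3 and numpy 2.4.6) tested 3 comparisons on the log2 scale with Benjamini-Hochberg adjustment at 0.05: exposed against control, over the 6145 probes well above background on at least 5 of 15 arrays; slide 2 against slide 1 within the controls; and absolute deviations from the group mean (a Levene-type test of spread). The fits were tested on simulated data in which the noise of each value was independent. Those data held no shift shared by the probes of an array, so they do not show how the fits behave with one. The fit of exposed against control also gave each dose against control, adjusted in the same way. The number of arrays limits the precision. Alternatives were quantile normalization, median scaling, normexp, the authors' values, other filters, slide as a term, and leaving out each control. Normexp (offset 50) ran on the median signal, since the files used here hold no mean signal column. In the test of spread, slide was not a term: its difference, fitted over all groups, was subtracted before the deviations were taken.

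Genes are named as in the array's design, and the RefSeq table matched none of the probe identifiers. Lists were matched by name pattern, and 1 probe stood for each gene, the brightest in the controls. Named were the 20 brightest, 15 dimmest, 20 most variable and 10 steadiest genes (the last at a mean above 0), the brightest and most variable of each list, vitellogenins, zona pellucida proteins and estrogen receptors. Other genes were named after their values were seen: those with 1 control at least 4-fold apart, further examples within lists, and the genes called in the tests. The members and lists were chosen with earlier results of these data known.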

Additional observations from a re-analysis of the deposited data

Results flagged for a closer look

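For 14 of 113 sets of 5 control values, 1 array stood apart: its gap to the nearest other control, as a share of the range of the 5, was over the critical value of 0.71 (Dixon). Chance gives this in about 1 in 20 sets, but the sets include the genes chosen for a large SD over the same 5 values, so the count cannot be read against chance. Over all measured probes it was met by 402 (7.19%), with control 4 low in 143 of them and control 2 low in 49.

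Control 1 was apart on high saxitoxin and tetrodotoxin binding protein 1 (a share of 0.823) and RT1 class II A beta chain (0.929). It was apart on low HLA class II DRB1-4 beta chain (0.836), H-2 class II I-E beta chain (0.973) and HLA class II DRB1-8 beta chain (0.757). Control 2 was apart on low protein C20orf22 (0.931), on the high median of the lipid synthesis list (0.780) and on the low median of the chaperone list (0.786), although that list's medians lay between -0.12 and 0.09.

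Control 4 was apart on the low side for 5 genes: similar to Ac1147 (0.920), rRNA promoter binding protein (0.866), matrix Gla-protein (0.880), low choriolytic enzyme An_u_12714 (0.757) and basic fibroblast growth factor receptor 1 (0.787), the last of these near background. Control 5 was apart on low microfibril-associated glycoprotein 4 (0.898). The cause of these values was not tested.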

How the results depend on the processing

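The count of measured probes, the 50 brightest probes and the calls between exposed and control arrays kept within 1.5 times under every setting run: 44 to 48 of the 50 brightest stayed in that group when 1 control was left out, and 78 to 104 probes were called in place of 94 (89 with slide as a block). With normexp, 344 probes had an SD of 1 or more in place of 525, the median SD was 0.358 in place of 0.445, 1 probe differed between slides in place of 2, and 6 differed in spread in place of 22. The median SD was 0.383 once each slide's controls were centred. In spread, 6 probes differed with no filter on dim probes, and 4 after a slide difference fitted over all groups was subtracted. Leaving out 1 control gave median SDs of 0.374 to 0.461, kept 28 to 45 of the 50 most variable probes (34 when well above background on 3 of 5 arrays was enough, 40 with normexp), and gave 1 to 5 calls between slides and 6 to 63 in spread. Single genes run under the alternatives were the brightest, dimmest, most variable and steadiest, the egg proteins, the estrogen receptors and the 2 leukocyte genes called. Over these, the difference between exposed and control arrays kept its side of the threshold in 910 of the cases run. It lost it in 14, all for C20orf31 and the 2 leukocyte genes. The control SD of the same genes was less stable: it kept within 1.5 times in 657 cases and moved further in 99. The order of arrays in the mitochondrially encoded and protease inhibitor lists and the 50 brightest depended on quantile normalization and the authors' values, as given above; those comparisons, the leave-out values of the pancreas list and the counts of arrays 4-fold apart under each scaling were added after seeing the data. The causes of these shifts were not tested. No paired analysis was possible because the labels number no replicates, so the numbers used here only name the arrays. Levels near background limit what the dimmest probes show.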

Other observations

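Probes that share a gene name did not always share the order of the control arrays. In 30 genes 1 probe had an SD of 1 or more and another one under 0.5. Of the probes named low choriolytic enzyme, An_u_12714 was low in control 4, while AN_v_12776 read 2.65, -1.11, 2.94, 4.15 and 1.84 and AN_v_12780 read 4.25, 0.64, 4.80, 5.60 and 3.17, with control 2 lowest, as in the pancreas genes. The alpha-1-antitrypsin homolog probe AN_v_4163 read 5.10, 5.72, -2.36, 5.49 and 5.22, so only control 3 was low, and it ran from -4.43 to 5.58 in the EE2 arrays.

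Myoglobin, the oxygen-binding protein of muscle (probe An_u_13160), was high in controls 2 and 4, at 1.06 and 1.81, and lowest in control 1, at -3.04. Across 5133 probes well above background on all 15 arrays, the SDs within groups had Spearman correlations of 0.470 to 0.501 for the 3 pairs of groups. The groups share probes and probe brightness, so these values are a description across probes.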
